A study of Homo sapiens with 12 samples.

Results

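CA2, RRAS2, PAK1 and MET are 4 protein-coding genes that earlier work in myeloma had tied to the histone methyltransferase NSD2. They were chosen by symbol from the 60504 features of the deposited table, each symbol matched 1 row, and all 4 were among the 14391 genes tested. The choice was made with their levels in cells with and without added NSD2 known. Differences of these 4 genes that involve the TKO or WT libraries are therefore given below as a description with no test. Other genes have adjusted p-values there, and the gene lists were also chosen with earlier results of these data known. Poly(A) RNA came from 12 libraries of TKO cells, a derivative of the human multiple myeloma line KMS-11. Their genotype is labelled WHSC1(+/-), after the former symbol of NSD2. All 4 groups share it, and each had 3 biological replicates: TKO without a vector, and TKO carrying an expression vector for wild-type NSD2 (WT), for NSD2 p.D1240A or for NSD2 p.F1295A. The TKO group carried no empty vector, so cells with and without a vector cannot be told apart from cells with and without added NSD2. The labels do not say whether each vector line is a clone or a pool.

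NSD2 adds methyl groups to lysine 36 of histone H3, a mark spread over active genes. In KMS-11 a translocation places NSD2 under an immunoglobulin enhancer and raises it, and TKO cells lack the translocated copy. MET is the receptor tyrosine kinase for hepatocyte growth factor (HGF), a ligand that myeloma cells often make themselves. RRAS2 (TC21) is a small GTPase of the RAS family that couples receptors to the RAF and PI3-kinase pathways. PAK1 is a serine/threonine kinase switched on by the GTPases RAC and CDC42 that acts on actin and on the MAPK cascade. CA2 is the cytosolic carbonic anhydrase that interconverts carbon dioxide and bicarbonate. Earlier work on NSD2 in this cell line listed MET, PAK1, RRAS2 and the growth factor TGFA among its targets.

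The DNA just before the start sites of the genes is shown as a description, from RefSeq, GRCh38.p14. Each window holds the 250 bases before a start site, read 5′ to 3′ on the strand of the gene. The set of RefSeq starts used here holds 1 start for PAK1 and for MET and 4 for RRAS2, of which the one nearest the principal GENCODE transcript was taken. CA2 had no entry in that set, which may not hold every RefSeq start. The windows are chr11:14359184-14359433 on the minus strand for RRAS2, chr11:77411972-77412221 on the minus strand for PAK1 and chr7:116671946-116672195 on the plus strand for MET. In GENCODE the RRAS2 and PAK1 windows lie inside the gene spans given below, downstream of the outermost start, and the MET window lies just before the gene. Capitals mark the GC box GGGCGG on either strand.

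RRAS2: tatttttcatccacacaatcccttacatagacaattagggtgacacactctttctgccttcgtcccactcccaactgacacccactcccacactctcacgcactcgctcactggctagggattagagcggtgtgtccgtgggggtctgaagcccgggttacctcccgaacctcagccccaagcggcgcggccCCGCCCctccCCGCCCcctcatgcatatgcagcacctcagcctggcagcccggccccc
PAK1: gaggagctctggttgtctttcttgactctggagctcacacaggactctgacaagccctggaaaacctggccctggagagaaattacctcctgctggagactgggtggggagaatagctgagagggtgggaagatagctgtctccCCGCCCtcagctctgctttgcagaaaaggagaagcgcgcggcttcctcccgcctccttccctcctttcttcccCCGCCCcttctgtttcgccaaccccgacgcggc
MET: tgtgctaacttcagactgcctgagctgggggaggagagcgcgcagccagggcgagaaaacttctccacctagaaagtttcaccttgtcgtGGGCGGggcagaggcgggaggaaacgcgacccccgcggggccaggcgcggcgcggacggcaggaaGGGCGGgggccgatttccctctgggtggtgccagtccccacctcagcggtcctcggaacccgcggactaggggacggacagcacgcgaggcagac

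Each of the 3 windows held 2 GC boxes, a motif found in 42.5% of the 34943 RefSeq windows of the same length. The content of G and C was 61.6% for RRAS2, 59.6% for PAK1 and 68.4% for MET, beside a median of 58.0% over all windows. MET had 24 CG dinucleotides, RRAS2 13 and PAK1 10, beside a median of 11. None of the 3 held the AP-1 letters TGANTCA (6.6% of all windows), the MAF core TGCTGA (14%), the E-box CACGTG (6.3%), the hypoxia core ACGTG, which lies inside that E-box (18.5%), or the TATA letters TATAAA (10.8%). The search covered both strands and these windows only, and the table gives 1 value per gene, so which start was used in these cells was not measured.

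Values are FPKM, fragments scaled to gene length and library size, after rescaling between libraries. They are given as mean ± SD over 3 libraries, so levels can be set side by side between genes. Low FPKM values fall in steps of single fragments, from which the depth was estimated at 24050000 to 46130000 fragments per library, the lowest in D1240A replicate 2. That library stood apart, with 52.7% of its FPKM sum in ribosomal RNA features against 1.66% to 2.47% in the others. Without it, 376 genes in place of 877 were called between D1240A and F1295A. The plasma cell label was checked on 9 markers. Their summed level was 2340 to 2550 FPKM in TKO and 3820 to 5040 in the vector lines. Most of that sum was JCHAIN, with a mean of 1730 in TKO and 3150 to 3910 in the vector groups. TNFRSF17, IRF4, PRDM1, XBP1 and SLAMF7 also had higher means in each vector group than in TKO. MZB1 (257 in TKO, 218 to 240 in the vector groups) and CD38 (0.85 and 0.28 to 0.545) had lower means. SDC1 (CD138), the marker used to sort plasma cells, stood at 4.01 ± 0.242 in TKO and at 0.235 to 0.278 in the 3 vector groups. Defining markers of B cells (MS4A1, PAX5, CD22) and fibroblasts (COL1A2, DCN, LUM) were under 0.1 FPKM in every group. NSD2 itself (ENSG00000109685) was higher in each vector line than in TKO: 58.6 to 62.7 FPKM in TKO, 188 to 195 in WT, 242 to 259 in D1240A and 159 to 172 in F1295A. Its level does not show which form of NSD2 a library carries, so the labels WT, D1240A and F1295A were not checked.

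**Figure D1:**
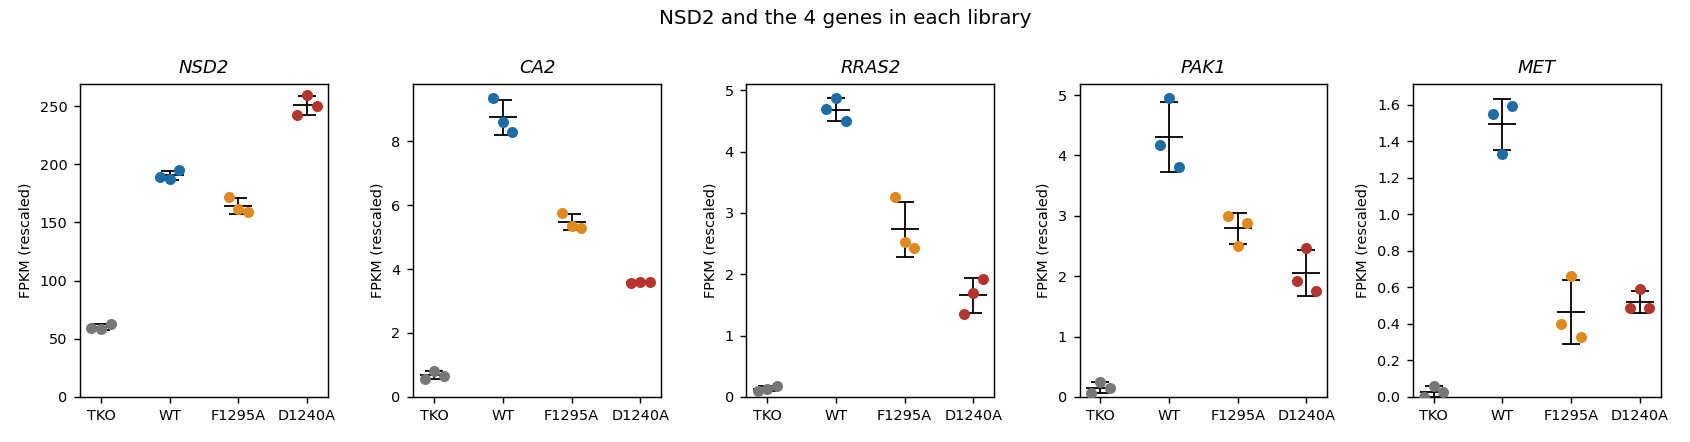
FPKM after rescaling (y axis, linear, from 0) of NSD2 and of the 4 genes in each of the 12 libraries, by group; points are libraries, and bars give mean ± SD of 3. CA2, RRAS2 and PAK1 step down from WT over F1295A and D1240A to TKO, MET stands at 0.463 and 0.521 in the mutant groups, and NSD2 is highest in D1240A.

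CA2 (ENSG00000104267, chromosome 8, 85463852 to 85481493) was the most abundant of the 4. The TKO libraries measured 0.574, 0.815 and 0.655 FPKM and the WT libraries 9.37, 8.59 and 8.30. D1240A gave 3.57, 3.61 and 3.60, and F1295A 5.77, 5.35 and 5.30. All 4 groups were separate, in the order WT, F1295A, D1240A, TKO. WT (8.75 ± 0.550) exceeded TKO (0.681 ± 0.123) 12.9-fold, a log2 difference of 2.97 on the log2(FPKM + 0.5) scale. D1240A reached 36.1% of the span from TKO to WT (35.1% to 37.5% with each library left out) and F1295A 59.4% (57.5% to 61.7%). The values rest on an estimated 37 to 61 fragments per TKO library and 485 to 605 per WT library. In bulk RNA, fewer cells that express a gene and less of its RNA per cell cannot be told apart.

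RRAS2 (ENSG00000133818, chromosome 11, 14277926 to 14364506) was close to 0 in TKO, with 0.0956, 0.125 and 0.183 FPKM, and an estimated 5 to 10 fragments behind each value. WT gave 4.69, 4.87 and 4.50. D1240A gave 1.36, 1.69 and 1.92, and F1295A 3.25, 2.52 and 2.42. The 4 groups did not overlap and stood in the same order as for CA2. WT (4.68 ± 0.185) exceeded TKO (0.134 ± 0.0445) 34.9-fold, a log2 difference of 3.03. D1240A reached 33.4% of the span (30.5% to 36.6%) and F1295A 57.1% (51.3% to 60.5%).

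PAK1 (ENSG00000149269, chromosome 11, 77321707 to 77474635) measured 0.0574, 0.249 and 0.154 FPKM in TKO and 4.18, 4.95 and 3.81 in WT. D1240A gave 1.91, 2.47 and 1.75, and F1295A 3.00, 2.51 and 2.88. The order was again WT, F1295A, D1240A, TKO, but the highest D1240A library, replicate 2 at 2.47, stood just under the lowest F1295A library at 2.51. WT (4.31 ± 0.582) exceeded TKO (0.154 ± 0.0960) 28.1-fold, a log2 difference of 2.88. D1240A reached 45.5% of the span (40.3% to 49.2%) and F1295A 63.6% (59.9% to 68.9%).

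MET (ENSG00000105976, chromosome 7, 116672390 to 116798386) was the lowest of the 4. It was listed at 0, 0.0575 and 0.0289 FPKM in TKO, an estimated 0 to 18 fragments, and at 1.55, 1.33 and 1.60 in WT. D1240A gave 0.486, 0.591 and 0.486, and F1295A 0.399, 0.662 and 0.329. Here the mutant groups overlapped each other, and both lay between TKO and WT without touching either. WT (1.49 ± 0.141) exceeded TKO (0.0288 ± 0.0288) 51.9-fold, a ratio that was 103 without TKO replicate 2 and 34.6 without TKO replicate 1. The log2 difference was 1.91, which the pseudocount of 0.5 holds down. D1240A reached 33.6% of the span (31.2% to 34.8%) and F1295A 29.7% (22.9% to 34.3%). MET passed the filter of 0.5 FPKM in 3 libraries through its 3 WT libraries and 1 library of each mutant, and CA2 passed in all 12.

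**Figure D2:**
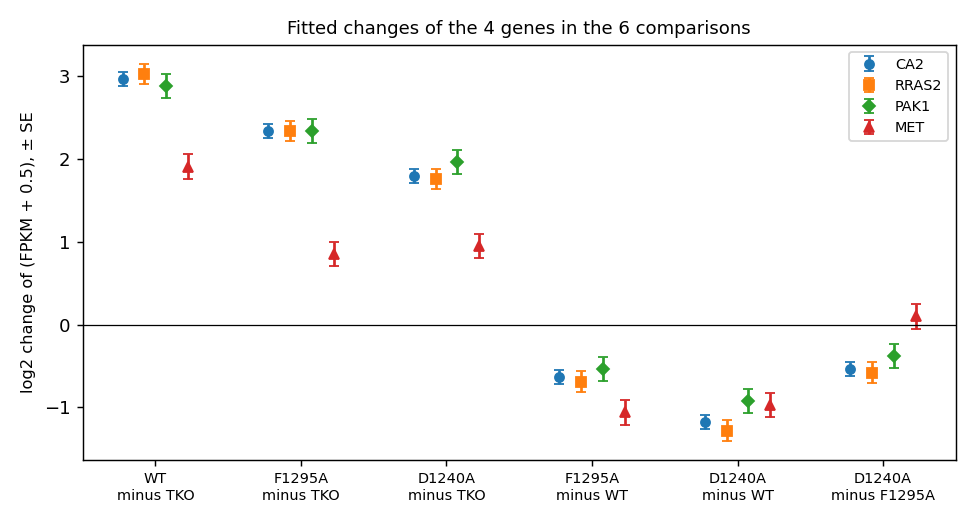
Fitted log2 change of FPKM + 0.5 (y axis) of the 4 genes in the 6 comparisons (x axis), with bars of ± 1 SE. The changes from TKO run from 0.85 to 3.03, the changes from WT from -0.54 to -1.28, and D1240A minus F1295A from -0.58 for RRAS2 to 0.10 for MET.

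All 4 genes were higher in each vector line than in TKO, with no overlap between libraries. Among all tested genes 30.5% were higher without overlap in WT, 27.6% in D1240A and 28.6% in F1295A. All 4 were lower in each mutant line than in WT, again with no overlap, beside 18.7% of all tested genes in D1240A and 12.7% in F1295A. From WT to D1240A the log2 differences were -1.18 (SE 0.0829) for CA2, -1.28 (0.125) for RRAS2, -0.92 (0.144) for PAK1 and -0.97 (0.147) for MET. From WT to F1295A they were -0.63 for CA2, -0.69 for RRAS2, -0.54 for PAK1 and -1.06 for MET, with the same SE for each gene. These comparisons share the WT libraries with each other and with the values that led to the choice of genes.

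D1240A against F1295A used neither the TKO nor the WT libraries for its means and was tested with limma over all 14391 genes. Of these, 3.09% were called lower and 3.00% higher at an adjusted p under 0.05. The exact comparison behind the choice of the 4 genes is not recorded. Whether the mutant libraries entered it is therefore unknown, and the p-values of the 4 genes may not be free of that choice. The D1240A libraries lay below all F1295A libraries for CA2, RRAS2 and PAK1, and the groups did not overlap, in either direction, for 24.0% of all tested genes. CA2 was lower in D1240A (3.59 ± 0.0218 against 5.47 ± 0.257 FPKM), a log2 change of -0.54 (SE 0.0829, adjusted p = 0.00445). This call held under each of the 23 alternatives tried, with adjusted p up to 0.0290. RRAS2 was lower as well (1.65 ± 0.281 against 2.73 ± 0.455), a log2 change of -0.58 (SE 0.125, adjusted p = 0.0229). The RRAS2 call was lost without D1240A replicate 2 (adjusted p = 0.0561), F1295A replicate 1 (0.0574) or F1295A replicate 2 (0.0540). It was also lost with a replicate block (0.0513), with no filter on low values (0.0690), with only the 2 mutant groups in the fit (0.115) and on the values as deposited (0.0592), 7 of 23 alternatives in all. PAK1 did not pass (2.04 ± 0.381 against 2.80 ± 0.257, log2 change -0.38, 95% interval -0.70 to -0.06 before adjustment, adjusted p = 0.144). MET did not pass either (0.521 ± 0.0605 against 0.463 ± 0.176, log2 change 0.10, interval -0.23 to 0.42, adjusted p = 0.741). NSD2 mRNA went the opposite way from CA2 and RRAS2, higher in D1240A by 0.61 (adjusted p = 1.7e-05). Whether the change of MET differs from that of the other genes was not tested. RNA levels do not measure protein, and vector and chromosomal NSD2 transcripts were not separated.

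The other genes of these pathways were taken from 12 lists of paralogs, ligands, activators, adaptors and targets, 202 genes in all, of which 149 were tested. In D1240A against F1295A 10 of them rose and 3 fell, 8.72% of those tested beside 6.09% of all genes, with a median of 0.02 beside 0.00. Against WT, 24 rose and 17 fell in D1240A (27.5% beside 19.2% of all genes), and 5 rose and 4 fell in F1295A (6.04% beside 2.71%). From TKO to WT 51 rose and 42 fell (62.4% beside 49.7%). The medians of the 149 genes lay between -0.01 and 0.05 in the 6 comparisons. Of the 13 genes called between the mutants, HGF, ST14, RAC3, VAV2 and RASGRP3 lost the call in 1 or 2 of 23 alternatives each, and the other 8 genes in 6 to 19, among them the fit without D1240A replicate 2. On the values as deposited 0 of the 149 were called between the mutants, and with 1 library left out the count was as low as 5, without D1240A replicate 2.

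The paralogs give the scale against which the 4 genes moved. Among carbonic anhydrases 5 of 14 were tested. CA8, a relative without the enzymatic activity, rose from 6.56 ± 0.430 FPKM in TKO to 18.2 ± 0.178 in WT (log2 change 1.41, adjusted p = 3.3e-09), and stood at 18.2 ± 0.962 in D1240A and 18.9 ± 1.03 in F1295A. Its change between WT and D1240A was 0.00 (interval -0.13 to 0.12). CA13 is a cytosolic isozyme and the nearest tested gene on the lower-coordinate side of CA2, not necessarily the adjacent gene. It rose from 0.255 ± 0.148 to 1.32 ± 0.259 (log2 change 1.28, adjusted p = 4.9e-05). It measured 1.05 ± 0.169 in D1240A and 1.33 ± 0.139 in F1295A, and did not pass between WT and either mutant. CA11, another relative without enzymatic activity, fell from 5.51 ± 0.786 to 2.59 ± 0.822 (adjusted p = 0.0102), and CA5B and CA14 did not pass.

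RRAS2 was a minor RAS transcript in every group. By group mean, RAP1B stood at 156 to 161 FPKM, HRAS at 53.0 to 67.4, NRAS at up to 33.6 and RRAS at 13.7 to 14.9, while MRAS did not exceed 0.196. From TKO to WT, NRAS rose (log2 change 0.20, adjusted p = 6.4e-04) and HRAS fell (-0.25, adjusted p = 5.5e-04). RRAS, the closest relative of RRAS2, had a change of 0.08 (adjusted p = 0.414). Of the 9 tested RAS relatives, 1 was called between WT and D1240A (11.1%, beside 19.2% of all genes), RIT1 (0.26, adjusted p = 0.00349). Between WT and F1295A 1 was called as well (11.1%, beside 2.71%), RALA (0.22, adjusted p = 0.0276), a call that 7 of 23 alternatives lost, among them the fits without any 1 of the WT libraries or without F1295A replicate 1 or 2. RASGRP1, an exchange factor that loads RAS proteins with GTP, had its mutant groups at like levels, as MET had. It rose from 0.182 ± 0.0578 FPKM in TKO to 1.34 ± 0.184 in WT, and was lower in D1240A (0.636 ± 0.0909, log2 change from WT -0.69, adjusted p = 0.00369) and in F1295A (0.670 ± 0.0812, -0.65, adjusted p = 0.0236), the last a call that 8 of 23 alternatives lost, among them the fits without WT replicate 1 or 2 or any 1 of the F1295A libraries. RASGRP3 moved the other way, from 13.3 ± 0.993 in WT to 22.4 ± 1.12 in D1240A and 16.3 ± 0.922 in F1295A, and D1240A exceeded F1295A by 0.45 (adjusted p = 0.0104). Among effectors, the PI3-kinase subunit PIK3CD was higher in D1240A than in WT by 0.54 (adjusted p = 5.3e-05).

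The other PAK kinases were either well above PAK1 or close to 0. PAK2 had group means of 66.2 to 69.9 FPKM, was not called in any of the 6 comparisons and exceeded PAK1 in every group. PAK4 had group means of 14.9 to 15.9, and PAK3 was listed at 0 in all 12 libraries. The upstream GTPases RAC1 (group means up to 137), RAC2 (197 to 218) and CDC42 (142 to 156) were abundant throughout. RAC3 rose from 47.0 ± 2.73 in TKO to 83.6 ± 2.94 in WT (log2 change 0.83, adjusted p = 4.5e-08). It was lower in D1240A than in WT (61.7 ± 2.54, log2 change -0.44, adjusted p = 8.8e-05) and than in F1295A (75.9 ± 1.93, log2 change -0.30, adjusted p = 0.00461). VAV2, an exchange factor for RAC, was higher in D1240A than in F1295A by 0.30 (12.6 ± 0.403 against 10.2 ± 0.402, adjusted p = 0.00374). Of 24 tested PAK targets, 3 (12.5%, beside 6.09% of all genes) were called between the mutants, all higher in D1240A. They were the microtubule regulator STMN1 (0.13), the apoptosis inducer BCL2L11 (0.19) and the actin crosslinker FLNA (0.14). All 3 calls were lost without D1240A replicate 2, and those of STMN1, BCL2L11 and FLNA in 6, 16 and 17 of 23 alternatives.

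**Figure D3:**
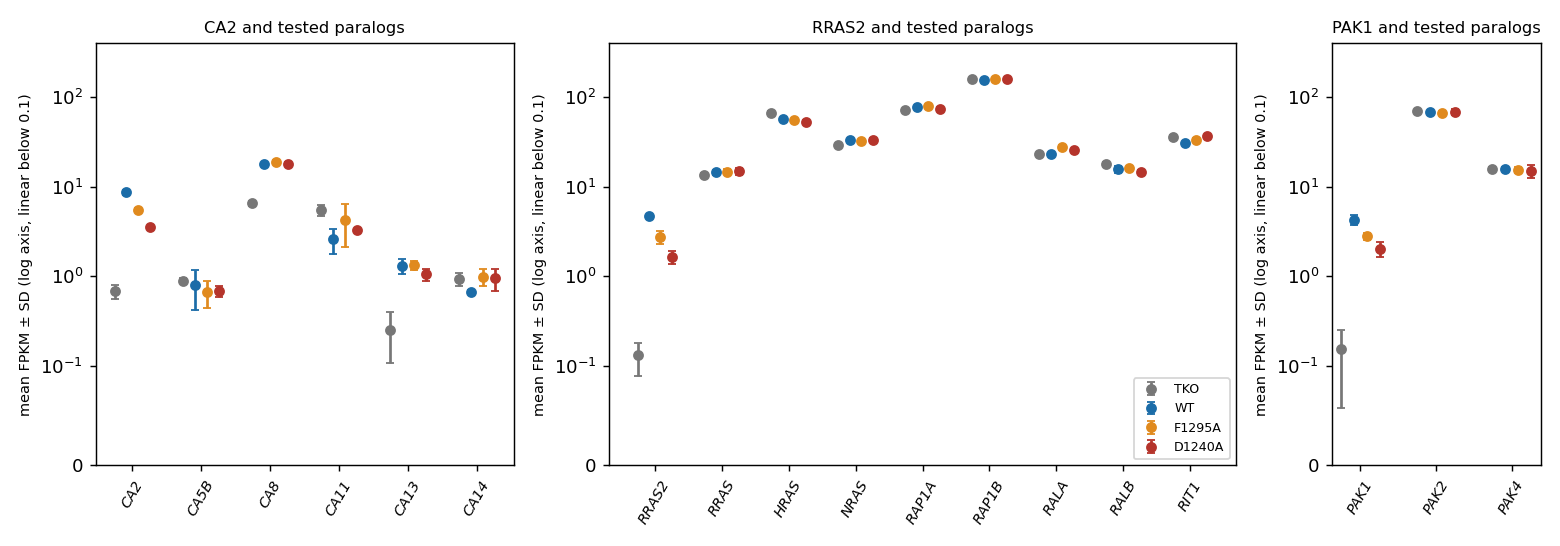
Mean FPKM ± SD of 3 libraries (y axis, logarithmic, linear below 0.1) of CA2, RRAS2 and PAK1 beside tested paralogs, by group. CA2, RRAS2 and PAK1 spread widely between groups, CA8 and CA13 are low in TKO alone, and HRAS, NRAS, RAP1B and PAK2 stay above RRAS2 and PAK1 in all groups.

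HGF, the ligand of MET, was expressed far above its receptor. It measured 53.6, 57.0 and 56.2 FPKM in TKO, 84.8, 84.5 and 90.0 in WT, and the mutant lines gave 69.1, 71.1 and 70.5 (D1240A) and 86.5, 86.0 and 84.1 (F1295A). The D1240A libraries lay between those of TKO and those of the other lines, and F1295A overlapped WT. HGF was lower in D1240A than in F1295A (log2 change -0.28, SE 0.0333, adjusted p = 9.0e-04) and than in WT (-0.30, adjusted p = 1.3e-04), while F1295A minus WT was -0.01 (interval -0.09 to 0.06). ST14, the membrane protease matriptase that cleaves HGF to its active form, rose from 26.1 ± 0.408 in TKO to 40.2 ± 1.45 in WT (0.62, adjusted p = 1.4e-07). It stood at 28.0 ± 1.03 in D1240A and 33.9 ± 1.10 in F1295A, a difference of -0.28 (adjusted p = 0.00320). On the values as deposited the calls between D1240A and F1295A were lost for HGF (adjusted p = 0.0629), ST14 (0.0854) and RAC3 (0.0970). HGF in D1240A replicate 2 was 57.74 FPKM as deposited and 71.07 after rescaling. The protease inhibitors SPINT1 and SPINT2 had group means of at most 0.118 FPKM, and the serum activator HGFAC was listed at 0 in all 12 libraries. SDC1, which also binds HGF at the cell surface, fell by 2.62 from TKO to WT (adjusted p = 8.7e-08) and was not called between the vector lines. MST1R, the paralog of MET, had group means of 0.156 to 0.297 and was not tested. Of 22 tested adaptors and negative regulators of MET, 2 were called between the mutants (9.09%, beside 6.09% of all genes), RANBP9 (0.16) and SH3KBP1 (0.13), both higher in D1240A. Each lost its call in 15 of 23 alternatives, among them the fit without D1240A replicate 2.

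**Figure D4:**
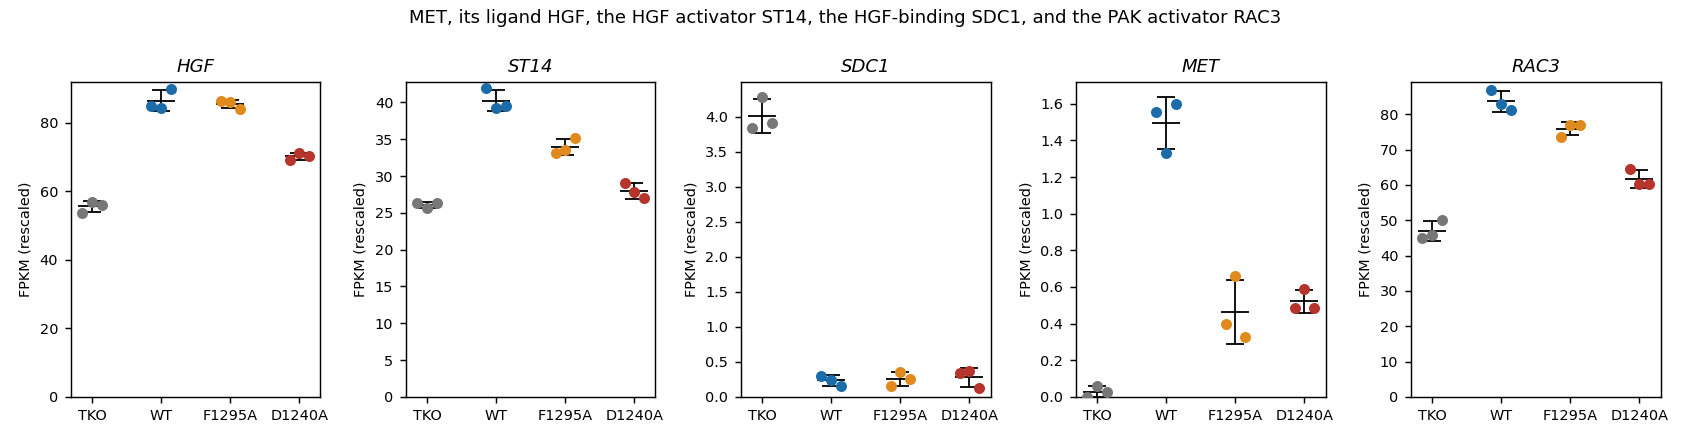
FPKM after rescaling (y axis, linear, from 0) of HGF, ST14, SDC1, MET and RAC3 in the 12 libraries by group, with mean ± SD of 3. HGF, ST14 and RAC3 are lower in D1240A than in F1295A, MET overlaps between those groups, and SDC1 is high in TKO alone.

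TGFA, the growth factor listed with these genes in the earlier work, stayed low. It measured 0.0384 ± 0.0334 FPKM in TKO, 0.336 ± 0.0598 in WT, 0.129 ± 0.0162 in D1240A and 0.210 ± 0.173 in F1295A, the last with 1 library at 0.409 and the others at 0.120 or less. It did not reach 0.5 FPKM in any library and was not tested.

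The genes around the 4 were examined for changes of whole chromosomal stretches. Of the 50 nearest tested genes, the median change from TKO to WT was 0.28 around CA2, -0.08 around RRAS2, 0.08 around PAK1 and -0.25 around MET. In that comparison 0 of the 50 exceeded CA2, RRAS2 or PAK1, and 2 exceeded MET. The 4 genes were chosen with their TKO and WT levels known, so their place above neighbours there is a description only. In D1240A against F1295A the medians lay between -0.02 and 0.05, and with the surrounding median removed CA2 and RRAS2 kept their calls. The nearest tested genes of RRAS2 were FAR1 (0.01 from TKO to WT, adjusted p = 0.881) and COPB1 (-0.07, adjusted p = 0.0801). Those of PAK1 were ACER3 (0.28, adjusted p = 0.0598) and CLNS1A (-0.14, adjusted p = 0.00489). MET lay between CAV1 (0.10, adjusted p = 0.545) and CAPZA2 (-0.28, adjusted p = 4.5e-04), and CA2 between CA13 (1.28) and WWP1 (-0.11, adjusted p = 0.0651). CAV1, the caveolar coat protein, was lower in D1240A than in WT (1.94 against 3.47 FPKM, log2 change -0.70, adjusted p = 0.00294).

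**Figure D5:**
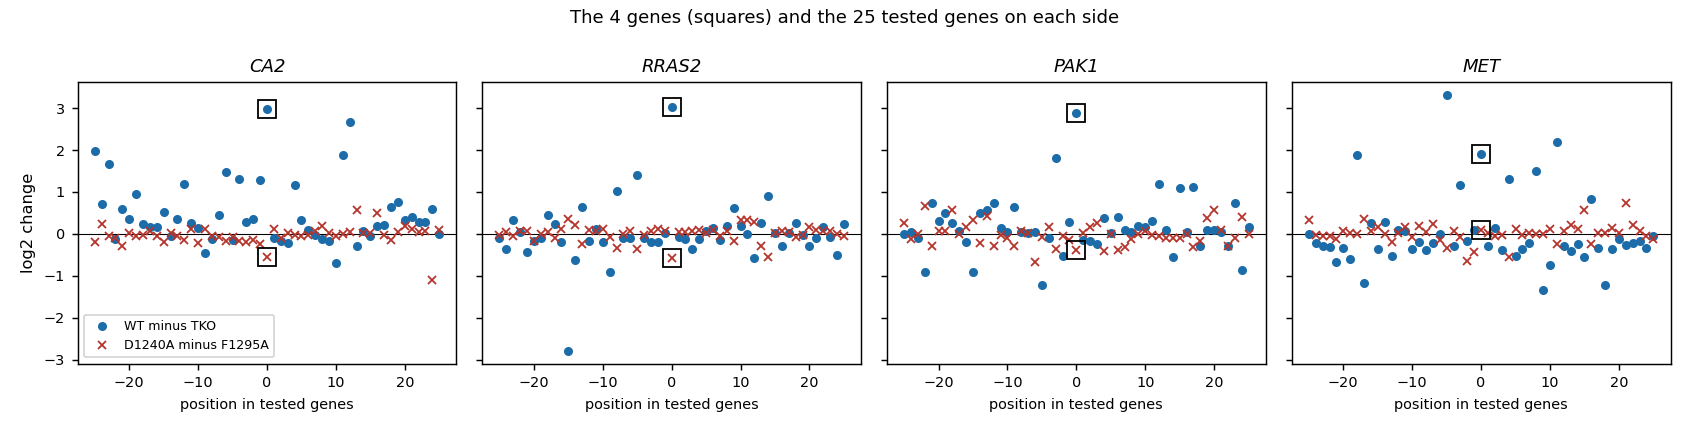
Fitted log2 change (y axis) of the 4 genes, in squares, and of the 25 tested genes on each side in chromosomal order (x axis), for WT minus TKO (circles) and D1240A minus F1295A (crosses). CA2, RRAS2 and PAK1 stand above all neighbours in WT minus TKO, a comparison whose levels were known when they were chosen. The crosses center near 0.

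Likeness to each gene was measured as Pearson's r over the 12 libraries on the log2 scale, among tested genes averaging 2 FPKM or more. The libraries fall into 4 groups, so r mostly reflects the order of the group means and is a description. Closest to CA2 were HERPUD1 (0.9965), XBP1 (0.9962), SLC7A5 (0.9960), PLTP (0.9952) and OTULINL (0.9951). Closest to RRAS2 were PLTP (0.9971), TBC1D30 (0.9962), HERPUD1 (0.9952), EVL (0.9945) and STRBP (0.9940). PAK1 was closest to STRBP (0.9922), MYO6 (0.9915), TIFA (0.9913), TBC1D4 (0.9907) and CA2 (0.9904). HERPUD1, of endoplasmic reticulum protein degradation, measured 138 FPKM in TKO, 258 in WT, 203 in D1240A and 231 in F1295A, the order seen for CA2. MET had a separate set with lower r, WWC2 (0.9722), P4HA1 (0.9710), PDK1 (0.9705), CLYBL (0.9673) and DDIT4 (0.9640). The collagen prolyl hydroxylase subunit P4HA1 measured 6.38, 12.3, 9.17 and 8.08 FPKM and the pyruvate dehydrogenase kinase PDK1 10.9, 20.2, 15.2 and 14.8 in the same order of groups, and both had F1295A below D1240A, as MET had, while WWC2, CLYBL and DDIT4 had it above. The 5 closest genes of MET shared none with those of the other 3.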

How the data were processed

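Poly(A) RNA of 12 libraries was measured. Per the submitters' processing notes, the tools named were Trimmomatic 0.36, FastQC 0.11.4, STAR 2.7.9a, RSEM 1.3.1 and DESeq2, with the build GRCh38. The authors deposited 1 FPKM value per gene and library. The sources used here do not name the annotation release or the strand setting. Names and coordinates came from GENCODE 29, which holds 94.2% of the 60504 features.

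Structural RNA features (7089) were left out. To put libraries on one scale, log2 ratios to the mean library were averaged after trimming 30% from each side, over genes averaging 1 FPKM or more. The 14391 genes that reached 0.5 FPKM in 3 or more libraries entered a limma fit (limma 3.58.1, R 4.3.3) of log2(FPKM + 0.5) with no factor but group, a variance trend, and Benjamini-Hochberg adjustment over all of them. The fit shares its spread over all 12 libraries. "Rose" and "fell" mean an adjusted p under 0.05. Depth was estimated from genes of 300 to 700 bases with 1 transcript, as the first step of FPKM times length less 150 bases, and fragments per gene from its principal transcript, so both are approximate. Percent of span is the mutant mean minus TKO over WT minus TKO.

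The genes and lists were chosen with earlier results of these data known. Named were the 4 genes, NSD2, TGFA, tested paralogs (1 is not reported here), up to 5 genes per list by adjusted p between the mutants, nearest neighbours and the 5 most alike; levels of other list genes were named after their values were seen. Python 3.11.15 with numpy 2.4.6, pandas 2.3.3 and matplotlib 3.10.9 made the tables and figures.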

Additional observations from a re-analysis of the deposited data

How the results depend on the processing

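CA2 was called lower in D1240A than in F1295A under all 23 alternatives, with log2 changes from -0.63 to -0.49. PAK1 stayed negative and uncalled (-0.50 to -0.30, adjusted p 0.104 to 0.321). MET was not called in any of its 22 alternatives and ranged from 0.00 to 0.24. It was 0.00 (adjusted p = 0.994), with the sign turned, without F1295A replicate 3. MET gave no value with only the 2 mutant groups in the fit, since too few of their libraries reach 0.5 FPKM. RRAS2 stayed negative in all 23 but lost its call in 7, the replicate block given below among them: -0.58 with no filter (adjusted p = 0.0690), -0.58 with only the 2 groups in the fit (0.115), -0.65 on the values as deposited (0.0592), and -0.67 to -0.47 with 1 library left out, where the call was lost without D1240A replicate 2, F1295A replicate 1 or F1295A replicate 2. In the comparisons with TKO the pseudocount set the size: with 0.1 and 1 in place of 0.5, WT minus TKO was 3.51 and 2.54 for CA2, 4.37 and 2.33 for RRAS2, 4.19 and 2.20 for PAK1 and 3.65 and 1.28 for MET.

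Of all genes, 877 were called between D1240A and F1295A, 440 with no filter, 102 with only the 2 groups in the fit, 63 as deposited and 310 to 1225 with 1 library left out (376 without D1240A replicate 2, 419 without D1240A replicate 3, 310 and 352 without F1295A replicates 2 and 3). The 2756 calls between D1240A and WT became 1608 as deposited and 1723 to 2833 with 1 library left out. The 390 between F1295A and WT became 613 with library weights, 89 as deposited and 149 to 514 with 1 library left out. Of the pathway genes, 13 were called between the mutants, 7 with no filter, 7 with library weights, 8 with the median of the 50 nearest genes removed, 3 with only the 2 groups in the fit, 0 as deposited and 5 to 15 with 1 library left out. Between D1240A and WT the 41 became 19 as deposited and 27 to 44 with 1 library left out, and between F1295A and WT the 9 became 5 with only the 2 groups, 0 as deposited and 3 to 12. With a change of at least 2-fold required as well, the calls among all genes were 7 between the mutants, 82 from WT to D1240A, 11 from WT to F1295A, 945 from TKO to WT, 653 from TKO to D1240A and 746 from TKO to F1295A, and among pathway genes 0, 0, 0, 15, 10 and 11. Without rescaling, the median of all genes moved to -0.10 in D1240A minus WT and -0.12 in D1240A minus TKO. The share of calls that were higher then went from 42.9% to 15.5% in D1240A minus WT, from 33.1% to 19.1% in F1295A minus WT and from 52.4% to 29.4% in D1240A minus TKO.

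Same-numbered libraries of different groups had deviations that correlated at -0.079 to 0.109, with means of 0.032, 0.029 and 0.056 for replicates 1, 2 and 3. Of the libraries, 7 of 12 correlated best with their own number. The main fit took no pairing, as the correlations were small, but whether the numbers mark a pairing was not tested. With a replicate block RRAS2 was -0.58 (adjusted p = 0.0513), 525 genes and 8 pathway genes were called between the mutants. Depth limits the TKO values of MET and RRAS2 most, with at most 18 and 10 estimated fragments.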

Other observations

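Of 11 ligands of the EGFR family, NRG2 alone passed the filter on low values and was tested. BTC measured 0.00638 ± 0.0110 FPKM in TKO, 0.382 ± 0.0329 in WT, 0.129 ± 0.105 in D1240A and 0.190 ± 0.0536 in F1295A. NRG3 measured 0.0287 ± 0.0287, 0.482 ± 0.136, 0.176 ± 0.0638 and 0.203 ± 0.0358 in the same order of groups. NRG2 had group means of 11.9 to 15.5 FPKM, and was higher in D1240A than in F1295A by 0.31 (limma, adjusted p = 0.0196). That call was lost in 6 of 23 alternatives. They were the fits without D1240A replicate 2, F1295A replicate 1 or F1295A replicate 3, with library weights, with only the 2 mutant groups, and on the values as deposited (limma, adjusted p = 0.299). The receptor EGFR did not exceed a group mean of 0.0229 FPKM.

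Bicarbonate, proton and water transporters, the partners of carbonic anhydrase, had 9 of 16 genes tested. Between WT and D1240A 1 was called (11.1%, beside 19.2% of all genes), the lactate carrier SLC16A1 (31.3 ± 1.86 against 25.9 ± 0.512 FPKM, log2 change -0.27, limma, adjusted p = 0.00995).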
